A study of Mus musculus with 8 samples.

Results

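The genes described here are targets of the hypoxia-inducible factors (HIF) other than those of glycolysis. They were taken from a list of 33 known HIF targets, out of 36307 gene names on a mouse expression array, and were matched by gene name or transcript accession. All 33 had at least 1 probe of 60 bases, with 50 probes on 59 spots, and 32 were measured above background. One-colour arrays were hybridised with RNA from the cardiac outflow tract of mouse embryos at E10.5. This single tube at the outlet of the embryonic heart is later divided between the aorta and the pulmonary artery. The mutant embryos were Raldh2-/-, lacking both copies of the gene for retinaldehyde dehydrogenase 2 (symbol Aldh1a2), the main enzyme that makes retinoic acid in the early embryo. They were set against wild type littermates. All embryos of both groups came from dams fed all-trans-retinoic acid at 0.1 mg per g of food between embryonic days 7.5 and 8.5, so both groups were retinoic acid-rescued and none was untreated. Each sample was a pool of 4 microdissected outflow tracts on 1 array. There were 4 pools of rescued Raldh2-/- tracts, numbered 1, 2, 3 and 7 and called knockout here, and 4 pools of rescued wild type tracts, numbered 1, 2, 5 and 7. The labels name no driver or cell type restriction of the deletion, and they do not say whether pools with the same number are related. The p-values therefore measure the spread between pools, each with its array. An outflow tract holds muscle, endocardial, neural crest and blood cells, so fewer cells of a type and less RNA per cell cannot be told apart.

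HIF is a pair of transcription factor subunits whose alpha subunit is hydroxylated and destroyed when oxygen is plentiful. When oxygen is low, the alpha subunit persists, joins its beta partner and binds the short DNA elements ACGTG or GCGTG in enhancers and promoters. Besides glycolytic enzymes, its targets include mitochondrial and mitophagy proteins, collagen-modifying hydroxylases, histone demethylases, transcriptional repressors, and brakes on growth signalling. The embryonic heart and outflow tract form at low oxygen, and HIF signalling takes part in outflow tract development in the mouse.

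RefSeq promoter windows on GRCm38.p6, each 250 bases before and 50 bases after a transcript start, were searched for these letters. Both strands were read, so that the palindrome CACGTG counts on each strand. Windows were held for 25 of the 33 genes, 34 windows in all. The other 8 genes were Bhlhe40, Bnip3l, Hmox1, Kdm4b, Lox, Ndrg1, Plod2 and Zfp395. At least 1 match was found in 24 of the 25 genes (96%), against 46.7% of 27025 genes with a window and 63.4% of the 12421 tested genes with a window. At least 2 matches were found in 19 of the 25 (76%), against 22.9% and 35.1% of those genes. Counted by window, 76.5% of 34 held a match, against 43.8% of all 32851 windows of the same length. Vldlr, the very low density lipoprotein receptor, was the gene with no match in its windows. Known HIF targets were in part recognised through such elements, so these shares are a description and not an independent result. A match is not a measured binding site. The 250 bases before the start are shown for 5 genes from 5 roles whose values are given in full further on, and for Narf, the gene that differed in the other direction. Capitals mark the matches on either strand, and each sequence reads 5′ to 3′ on the strand of its gene.
Ankrd37 (chr8:45999851-46000100, minus strand): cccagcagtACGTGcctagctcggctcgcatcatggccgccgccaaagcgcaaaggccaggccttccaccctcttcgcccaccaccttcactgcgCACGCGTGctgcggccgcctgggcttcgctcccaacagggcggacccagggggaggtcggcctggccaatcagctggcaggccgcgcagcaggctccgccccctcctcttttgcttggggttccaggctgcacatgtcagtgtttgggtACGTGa
Bnip3 (chr7:138909507-138909756, minus strand): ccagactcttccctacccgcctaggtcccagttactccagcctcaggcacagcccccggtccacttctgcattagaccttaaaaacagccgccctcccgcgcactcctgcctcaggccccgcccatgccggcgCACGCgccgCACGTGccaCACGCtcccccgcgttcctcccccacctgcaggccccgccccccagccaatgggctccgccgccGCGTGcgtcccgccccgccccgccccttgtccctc
Ero1a (chr14:45318573-45318822, minus strand): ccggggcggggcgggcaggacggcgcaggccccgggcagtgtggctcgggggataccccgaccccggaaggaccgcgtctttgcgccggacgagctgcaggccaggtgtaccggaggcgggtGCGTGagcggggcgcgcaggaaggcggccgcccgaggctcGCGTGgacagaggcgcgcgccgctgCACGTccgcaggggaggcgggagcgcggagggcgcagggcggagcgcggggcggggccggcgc
Rora (chr9:68653536-68653785, plus strand): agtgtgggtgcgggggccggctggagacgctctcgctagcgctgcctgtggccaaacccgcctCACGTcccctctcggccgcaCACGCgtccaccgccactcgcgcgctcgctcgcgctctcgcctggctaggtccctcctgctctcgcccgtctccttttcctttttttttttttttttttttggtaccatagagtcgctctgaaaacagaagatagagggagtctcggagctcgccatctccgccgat
Selenbp1 (chr3:94932833-94933082, plus strand): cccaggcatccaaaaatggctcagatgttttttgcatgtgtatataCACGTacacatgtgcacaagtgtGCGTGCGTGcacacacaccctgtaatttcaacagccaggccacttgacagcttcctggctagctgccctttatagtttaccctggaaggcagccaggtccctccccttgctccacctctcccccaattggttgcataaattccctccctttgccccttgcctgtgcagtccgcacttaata
Narf (chr11:121236986-121237235, plus strand): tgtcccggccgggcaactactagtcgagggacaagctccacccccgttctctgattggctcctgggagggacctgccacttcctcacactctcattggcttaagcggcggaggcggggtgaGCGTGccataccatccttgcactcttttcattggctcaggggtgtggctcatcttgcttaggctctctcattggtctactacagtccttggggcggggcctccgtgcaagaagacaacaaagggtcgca
The Bnip3 stretch holds 5 matches, a pair of which are the 2 strands of CACGTG. The Ankrd37 stretch holds 4, of which the last starts 6 bases before the transcript start. The stretches of Ero1a and Selenbp1 hold 3 matches each, that of Rora 2, and that of Narf 1. Over all 34 windows, 71 of 75 matches lay before the start, 43 of them within 125 bases of it and 28 farther away.

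**Figure D1:**
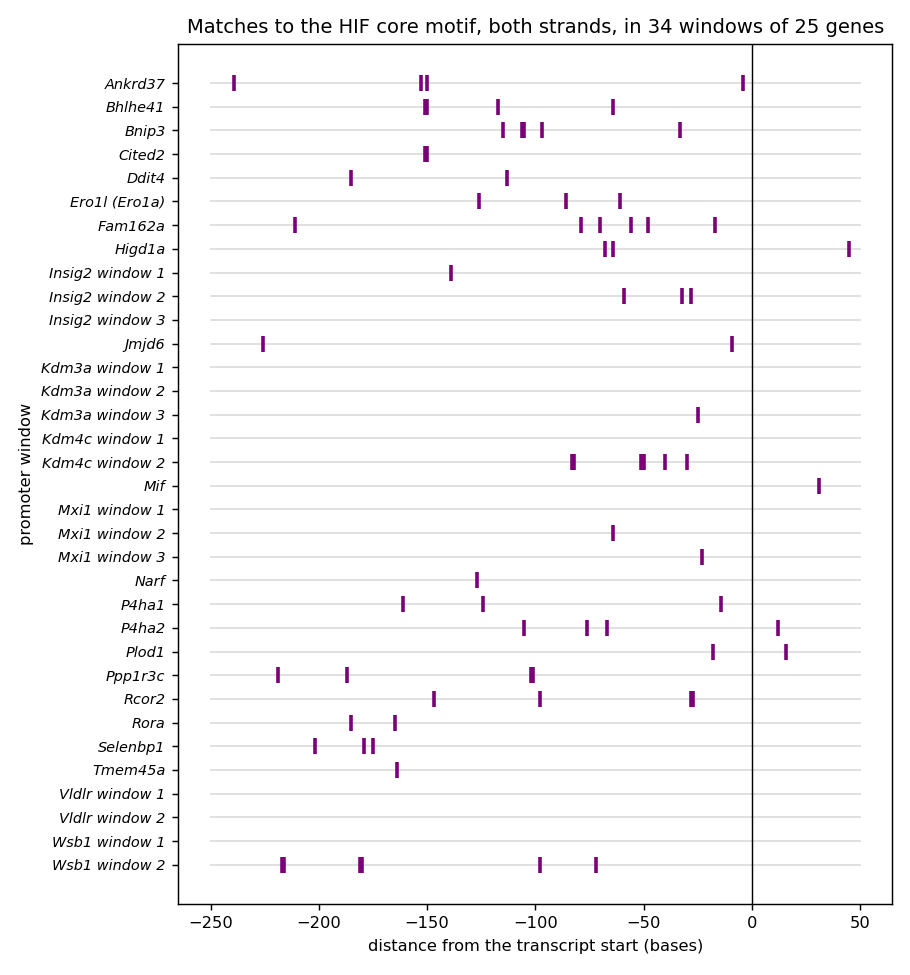
Distance from the transcript start, in bases, of each match to ACGTG or GCGTG on either strand (purple ticks) in the 34 promoter windows of 25 HIF target genes. Of the 75 matches, 71 lie left of the start, and both windows of Vldlr are empty.

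The arrays differed in quality. Wild type pool 1 stood apart from the other 7 arrays: the share of spots called well above background was 61.1% to 63.2% on the knockout arrays, against 94.7% on that of wild type pool 1 and 53.3% to 62.5% on the 3 remaining wild type arrays. Its median correlation with the other arrays was 0.682, against 0.967 to 0.985 for the others. Its deposited signals were higher, with a median of 2023.02 against 40.0 to 83.0 on the others. The 75th percentile was 4132.73, against 558.281 to 957.53. Of the probes well above background on none of the other 7 arrays, 87.5% were called well above background there. Results are therefore given with all 8 arrays and again with the 7 arrays left without wild type pool 1. All values are processed signals over the 75th percentile of their array, on the log2 scale, and differences are knockout minus wild type. A low value in wild type pool 1 is thus low for its array and need not be a low deposited signal. The knockout arrays filled 1 row of the slide and the wild type arrays the other, so that slide row and genotype cannot be told apart. Aldh1a2 itself had log2 signals of 2.26, 2.23, 2.12 and 0.28 in knockout pools 1, 2, 3 and 7, against 1.95, 3.44, 3.21 and 3.89 in wild type pools 1, 2, 5 and 7. Its difference was -1.40 (two-sided exact permutation test, p = 0.114), and without wild type pool 1 it was -1.80 (p = 0.0286, the smallest that 35 assignments allow). For Aldh1a2 the limma adjusted p was 0.734 with 8 arrays and 0.361 with 7. Whether its probe lies in the deleted part is not stated. Markers of the labelled tissue were present: all 10 cardiomyocyte markers and all 8 outflow tract progenitor markers were measured, as were 7 of 8 neural crest markers, Foxd3 being the one below the background limit.

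No HIF target gene passed an adjusted p of 0.05, and neither did any other gene (0% of 24286 genes with 8 arrays and 0% of 23655 with 7; limma, Benjamini-Hochberg). Most of the 32 measured genes were nevertheless lower in the knockout pools. With 8 arrays, 25 of 32 had a negative log2 fold change and their median was -0.46, whereas 40.5% of all genes were negative and the median of all genes was 0.18. Without wild type pool 1, 31 of 32 were negative with a median of -0.68, against 41.4% of all genes and a median of 0.05. The exception was Narf. With the array median in place of the 75th percentile as the scale, 15 of 32 were negative with 8 arrays, when the median of all genes stood at 0.69 and 29 of 32 members lay below it. None of the 32 changed sign in 13 alternatives to the fit of 7 arrays. Adjusted p-values of the members ran between 0.734 and 0.962 with 8 arrays and between 0.324 and 0.589 with 7 (limma).

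The number of members with an unadjusted p under 0.05 and a lower knockout level was 7 of 32 with 8 arrays, where the share over all genes was 1.03%. It was 25 of 32 with 7 arrays, where the share over all genes was 4.42%. All knockout pools were under all wild type pools for 4 of 32 members with 8 arrays (Ndrg1, Rora, Ankrd37 and Ero1a), against 1.4% of all genes. Without wild type pool 1 this held for 18 of 32 members, or 56.2%, against 4.94% of all genes. Such separations were counted only with the 75th percentile as the scale, which was lowest on wild type pool 7 (558.281). No member had every knockout pool above every wild type pool with 7 arrays, an arrangement found in 6.62% of all genes. A log2 fold change of -1 or lower was seen for 6 members with 8 arrays and 11 with 7. Over all genes, 4.46% had a lower log2 fold change than P4ha2 (-0.98) with 8 arrays. With 7 arrays, 0.723% had a lower one than Ero1a (-0.99). The members were chosen with earlier results of these data known, so that these counts describe the list and do not test it.

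**Figure D2:**
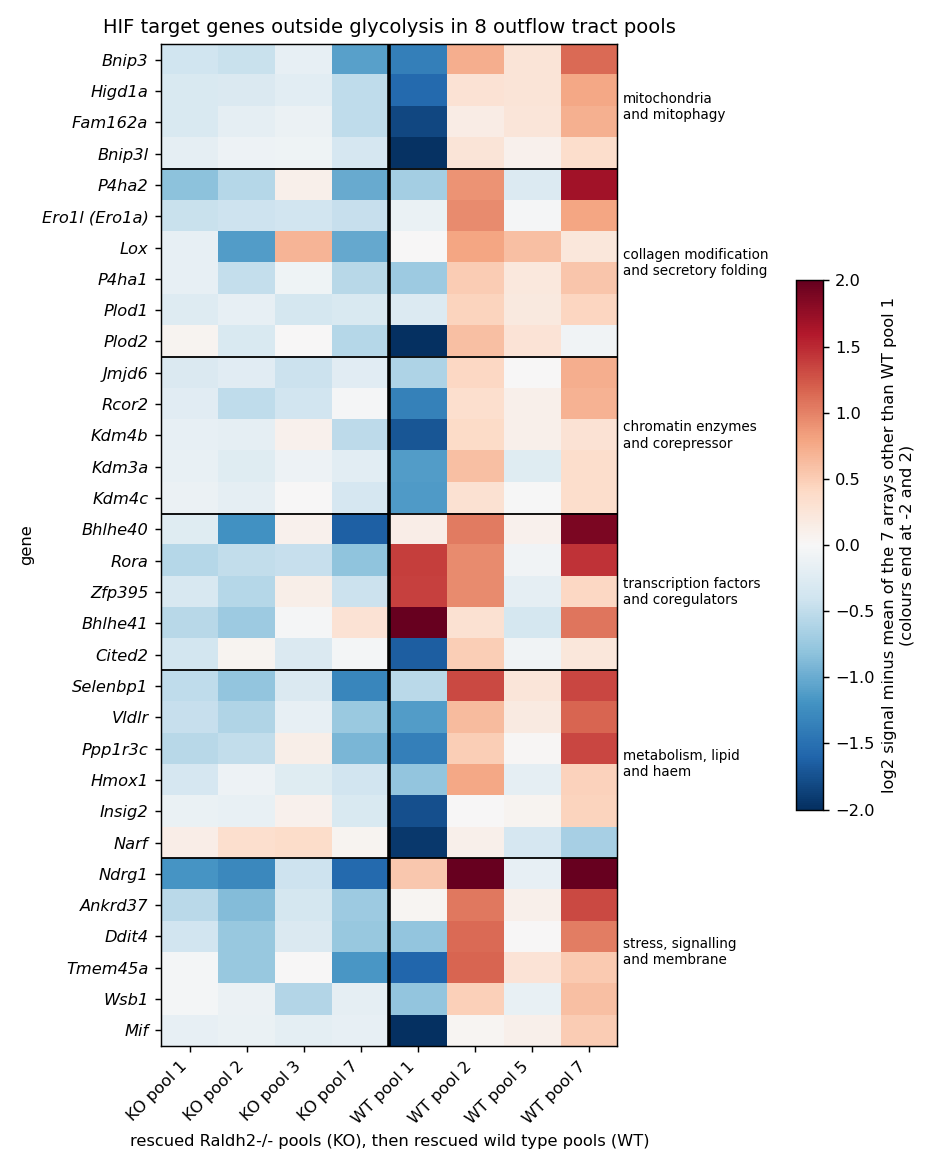
Log2 signal of 32 HIF target genes (rows, by role) in 4 knockout and 4 wild type pools (columns), with the mean of the 7 arrays without wild type pool 1 subtracted gene by gene. Blue is lower and red higher: knockout columns are mostly blue, wild type pools 2 and 7 mostly red, wild type pool 5 is pale, and wild type pool 1 is the lowest of all pools for 21 genes.

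**Figure D3:**
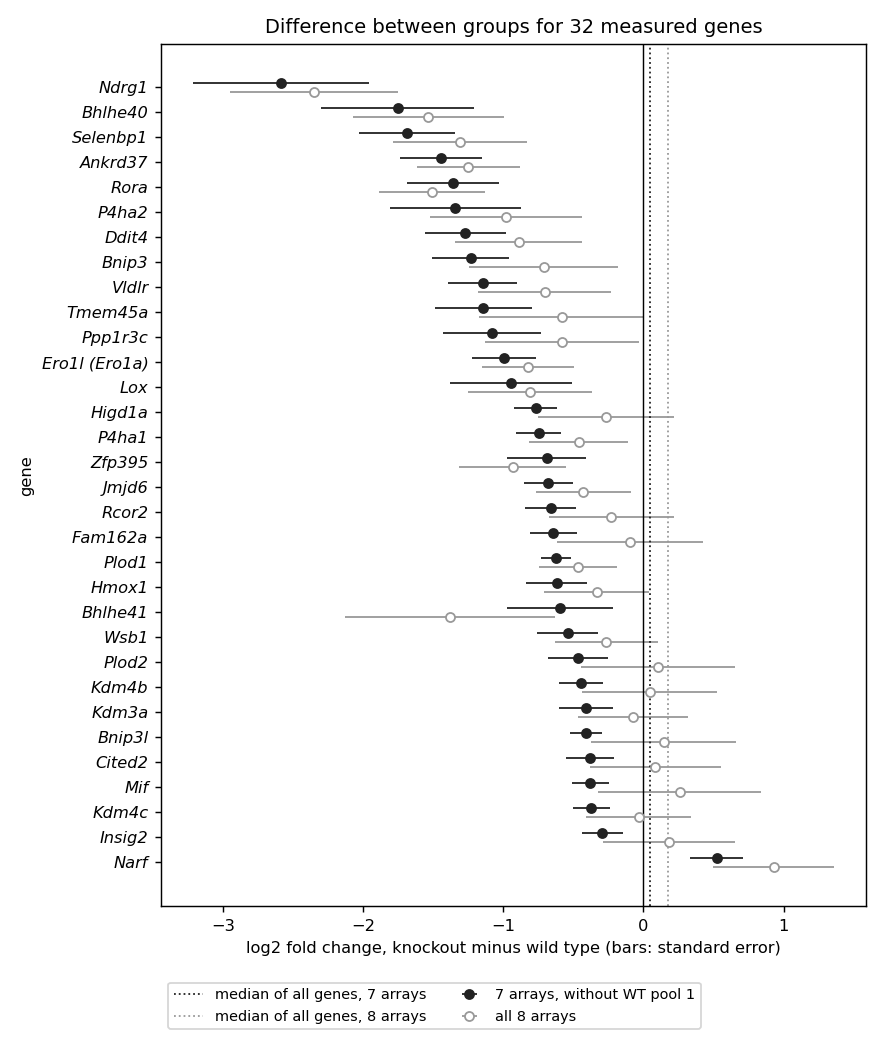
Log2 fold change, knockout minus wild type, with its standard error, for 32 HIF target genes, from 7 arrays (black) and from 8 arrays (grey, open), with the median of all genes as dotted lines. Ndrg1 has the most negative value in both, and Narf is the one gene above 0 with 7 arrays.

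Of the genes that act in stress responses, signalling and at membranes, Ndrg1 showed the widest gap. Ndrg1 encodes a cytoplasmic protein induced by stress and linked to myelin and to growth restraint (probe at mm9 chr15:66761057-66761116). Its log2 signals were 0.23, 0.12, 0.99 and -0.14 in knockout pools 1, 2, 3 and 7, against 1.95, 3.84, 1.25 and 3.57 in wild type pools 1, 2, 5 and 7. No knockout pool reached the lowest wild type pool, although knockout pool 3 and wild type pool 5 lay close together. The log2 fold change was -2.35 ± 0.60 (SE, n = 4 pools a group; limma adjusted p = 0.734), a 5.10-fold higher level in wild type. Without wild type pool 1 it was -2.59 ± 0.63 (limma adjusted p = 0.349). Only 11 of the 23655 genes tested with 7 arrays had a lower log2 fold change.

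Ankrd37, an ankyrin repeat protein used as a marker of the HIF response (mm9 chr8:47082404-47082463), had 1.06, 0.73, 1.25 and 0.86 in knockout pools 1, 2, 3 and 7, against 1.63, 2.65, 1.70 and 2.91 in wild type pools 1, 2, 5 and 7. The groups did not overlap, with or without wild type pool 1. This was a log2 fold change of -1.25 ± 0.37 with 8 arrays (limma adjusted p = 0.734) and -1.45 ± 0.29 with 7 (limma adjusted p = 0.330). Ddit4, also known as Redd1, restrains the growth kinase complex mTORC1 when oxygen or energy is short (mm9 chr10:59412486-59412545). It had 4.64, 4.27, 4.73 and 4.27 in knockout pools 1, 2, 3 and 7, against 4.23, 6.16, 5.03 and 6.05 in wild type pools 1, 2, 5 and 7. The value of wild type pool 1 lay just under all 4 knockout pools, and the other wild type pools lay above them. Knockout minus wild type came to -0.89 ± 0.45 with 8 arrays and -1.27 ± 0.29 with 7 (limma adjusted p = 0.734 and 0.347).

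The other 3 genes of this role were Tmem45a, a membrane protein with a log2 fold change of -1.14 ± 0.35 with 7 arrays, Wsb1, a ubiquitin ligase subunit (-0.54 ± 0.22), and Mif, a secreted cytokine (-0.38 ± 0.13). With 7 arrays the knockout pools lay below the wild type pools in 5 of these 6 genes, the exception being Wsb1, and with 8 arrays in 2 of 6, where the shares over all genes were 4.94% and 1.4%. With 8 arrays Tmem45a had -0.58 ± 0.59 and Wsb1 had -0.27 ± 0.37, and Mif was on the other side of 0, at 0.26 ± 0.58.

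Mitochondrial and mitophagy targets were lower in the knockout pools in every one of the 4 genes once wild type pool 1 was left out. Bnip3 encodes a mitophagy receptor of the outer mitochondrial membrane (mm9 chr7:146082760-146082819). Its log2 signals were 5.96, 5.91, 6.20 and 5.27 in knockout pools 1, 2, 3 and 7, against 4.99, 7.09, 6.62 and 7.49 in wild type pools 1, 2, 5 and 7. On this scale the lowest of the 8 was wild type pool 1, and the other wild type pools were the 3 highest. The deposited Bnip3 signal was highest in wild type pool 1, at 131294, against 29254.2 to 104833 in the other pools. The fitted difference was -0.71 ± 0.53 with 8 arrays (limma adjusted p = 0.734) and -1.23 ± 0.27 with 7, a 2.35-fold higher level in wild type (limma adjusted p = 0.346).

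Higd1a encodes an inner mitochondrial membrane protein that protects respiration at low oxygen (mm9 chr9:121761621-121761680). It had 4.70, 4.71, 4.79 and 4.50 in knockout pools 1, 2, 3 and 7, against 3.44, 5.30, 5.25 and 5.77 in wild type pools 1, 2, 5 and 7. The knockout pools agreed closely and again lay between wild type pool 1 and the rest of the wild type pools. The log2 fold change was -0.27 ± 0.49 with 8 arrays and -0.77 ± 0.15 with 7 (limma adjusted p = 0.780 and 0.330). Fam162a, a mitochondrial protein tied to cell death at low oxygen, had -0.64 ± 0.17 with 7 arrays, and Bnip3l, a mitophagy receptor related to Bnip3, had -0.41 ± 0.11. With 8 arrays Fam162a had -0.10 ± 0.52, and Bnip3l was the other way round, at 0.14 ± 0.52. Fam162a is printed 10 times on each array, which gives the spread between spots within an array. The SD between spots was 0.0324 to 0.0699 on 7 arrays and 0.179 on wild type pool 1. Technical spread between arrays was not measured, because each pool had 1 array. Between pools its SD was 0.171 for knockout, against 0.306 for wild type pools 2, 5 and 7.

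The collagen-modifying and secretory folding genes encode enzymes of the endoplasmic reticulum, apart from Lox, which acts outside the cell. All 6 were lower in the knockout pools with 7 arrays, with a median of -0.84. Ero1a, named Ero1l on the array, is the oxidase that feeds disulphide bond formation (mm9 chr14:45904192-45904251). It had -0.67, -0.63, -0.61 and -0.69 in knockout pools 1, 2, 3 and 7, against -0.35, 0.72, -0.25 and 0.57 in wild type pools 1, 2, 5 and 7. The knockout pools were nearly equal to each other and all lay under the lowest wild type pool. This was a log2 fold change of -0.82 ± 0.33 with 8 arrays and -0.99 ± 0.23 with 7 (limma adjusted p = 0.734 and 0.347). Of the members, Ero1a alone passed the threshold in any other fit: with both wild type pools 1 and 5 left out, its log2 fold change was -1.29 (limma adjusted p = 0.0468, with 2 wild type pools).

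P4ha1 and P4ha2 are catalytic subunits of prolyl 4-hydroxylase, which stabilises the collagen triple helix. P4ha1 (mm9 chr10:58835625-58835684) had 0.65, 0.34, 0.73 and 0.25 in knockout pools 1, 2, 3 and 7, against 0.09, 1.33, 1.02 and 1.37 in wild type pools 1, 2, 5 and 7. Apart from wild type pool 1 the groups did not overlap. Its log2 fold change was -0.46 ± 0.35 with 8 arrays and -0.75 ± 0.16 with 7 (limma adjusted p = 0.734 and 0.341). P4ha2 differed by -0.98 ± 0.54 with 8 arrays and -1.34 ± 0.47 with 7, with knockout pool 3 inside the wild type range.

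Plod1, a lysyl hydroxylase that prepares collagen for cross-linking, had the smallest adjusted p of the members with 7 arrays. The genome stretch of its probe is longer than the probe itself, as for one laid across an exon junction (mm9 chr4:147290037-147291457). It had 0.77, 0.86, 0.68 and 0.72 in knockout pools 1, 2, 3 and 7, against 0.75, 1.47, 1.22 and 1.46 in wild type pools 1, 2, 5 and 7. Here wild type pool 1 fell among the knockout pools, and the others lay above all of them. Knockout minus wild type came to -0.47 ± 0.28 with 8 arrays and -0.63 ± 0.11 with 7 (limma adjusted p = 0.734 and 0.324). Plod2, its relative, had -0.47 ± 0.21 with 7 arrays and 0.10 ± 0.55 with 8. Lox, the lysyl oxidase that cross-links collagen and elastin, had -0.94 ± 0.44 with 7 arrays and -0.81 ± 0.44 with 8, and spread widely among the knockout pools, with values between -4.24 and -2.46. The Lox signal was dim, its mean lying above that of only 21.1% of all genes with 7 arrays. With quantile normalization of 8 arrays its log2 fold change was 0.0219.

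Among transcription factors and coregulators, Rora and the repressors Bhlhe40 and Bhlhe41 stand close to the circadian clock. Rora, a nuclear receptor (mm9 chr9:69226774-69226833), had -1.51, -1.42, -1.39 and -1.74 in knockout pools 1, 2, 3 and 7, against 0.45, 0.0047, -0.998 and 0.52 in wild type pools 1, 2, 5 and 7. The groups did not overlap in either set of arrays, and wild type pool 5 was the one closest to the knockout pools. The fitted difference was -1.51 ± 0.38 with 8 arrays and -1.36 ± 0.33 with 7 (limma adjusted p = 0.734 and 0.349).

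Bhlhe40 (mm9 chr6:108616309-108616368) had -0.27, -1.25, 0.06 and -1.67 in knockout pools 1, 2, 3 and 7, against 0.10, 1.01, 0.05 and 1.86 in wild type pools 1, 2, 5 and 7. Knockout pool 3 and wild type pool 5 were nearly equal, so the groups met. Its log2 fold change of -1.53 ± 0.54 with 8 arrays and -1.75 ± 0.55 with 7 (limma adjusted p = 0.734 and 0.387) was the second most negative of the members in both. Bhlhe41 (mm9 chr6:145811275-145811334) had -3.61, -3.78, -3.08 and -2.78 in knockout pools 1, 2, 3 and 7, against 0.42, -2.75, -3.41 and -1.98 in wild type pools 1, 2, 5 and 7. Its highest value was that of wild type pool 1, and its difference was -1.38 ± 0.75 with 8 arrays and -0.60 ± 0.38 with 7 (limma adjusted p = 0.734 and 0.589). A second, dimmer probe of Bhlhe41 was well above background in 1 knockout pool and all 4 wild type pools, and no difference is given for it.

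Zfp395, a zinc finger transcription factor (mm9 chr14:66017455-66017514), had -1.08, -1.34, -0.65 and -1.20 in knockout pools 1, 2, 3 and 7, against 0.59, 0.18, -0.96 and -0.35 in wild type pools 1, 2, 5 and 7. Wild type pool 5 lay inside the knockout range. The log2 fold change was -0.93 ± 0.38 with 8 arrays and -0.69 ± 0.28 with 7 (limma adjusted p = 0.734 and 0.462). Cited2 competes with HIF for the coactivators CBP and p300 and is needed for outflow tract septation in the mouse. Its log2 fold change was -0.38 ± 0.17 with 7 arrays and 0.09 ± 0.47 with 8. Mxi1, an antagonist of Myc, was well above background in no knockout pool and in 2 wild type pools, and was not tested.

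Of the 6 genes grouped under metabolism, lipid and haem, 5 were lower in the knockout pools with 7 arrays and 4 with 8. Selenbp1, a selenium-binding protein that oxidises methanethiol (mm9 chr3:94748621-94748680), had 2.76, 2.47, 2.97 and 1.97 in knockout pools 1, 2, 3 and 7, against 2.73, 4.58, 3.50 and 4.60 in wild type pools 1, 2, 5 and 7. Only wild type pool 1 fell within the knockout range. This was a log2 fold change of -1.31 ± 0.48 with 8 arrays and -1.68 ± 0.34 with 7, a 3.21-fold higher level in wild type (limma adjusted p = 0.734 and 0.330).

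Vldlr, which takes up triglyceride-rich lipoproteins (mm9 chr19:27324050-27324109), had 2.90, 2.77, 3.20 and 2.64 in knockout pools 1, 2, 3 and 7, against 2.26, 4.01, 3.55 and 4.53 in wild type pools 1, 2, 5 and 7. The lowest pool was wild type pool 1 and the other wild type pools were the highest. Knockout minus wild type came to -0.71 ± 0.47 with 8 arrays and -1.15 ± 0.24 with 7 (limma adjusted p = 0.734 and 0.341). Ppp1r3c, which targets protein phosphatase 1 to glycogen, had -1.08 ± 0.35 with 7 arrays and -0.58 ± 0.55 with 8. Hmox1, which breaks down haem, had -0.62 ± 0.22 with 7 arrays and -0.33 ± 0.37 with 8. Insig2, a brake on sterol synthesis, had -0.29 ± 0.15 with 7 arrays and 0.19 ± 0.47 with 8.

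Narf, a nuclear protein that binds prelamin A (mm9 chr11:121117026-121117085), ran the other way. It had -0.59, -0.39, -0.35 and -0.66 in knockout pools 1, 2, 3 and 7, against -2.65, -0.62, -1.05 and -1.38 in wild type pools 1, 2, 5 and 7. Wild type pool 2 lay within the knockout range. The fitted difference was 0.93 ± 0.43 with 8 arrays and 0.52 ± 0.19 with 7 (limma adjusted p = 0.734 and 0.423).

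The chromatin genes had the smallest median difference of the 6 roles, -0.08 with 8 arrays and -0.45 with 7. Kdm3a, Kdm4b and Kdm4c are oxygen-dependent histone lysine demethylases. Their log2 fold changes with 7 arrays were -0.41 ± 0.19 for Kdm3a, -0.45 ± 0.16 for Kdm4b and -0.37 ± 0.13 for Kdm4c. With 8 arrays they lay between -0.08 and 0.04. Jmjd6, a lysyl hydroxylase of the same enzyme superfamily, had -0.68 ± 0.17 with 7 arrays, and Rcor2, a corepressor that partners the demethylase Lsd1, had -0.66 ± 0.18. With 8 arrays Jmjd6 had -0.43 ± 0.34 and Rcor2 had -0.23 ± 0.45. The knockout pools lay below the wild type pools for Kdm4b, Jmjd6 and Rcor2 with 7 arrays.

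**Figure D4:**
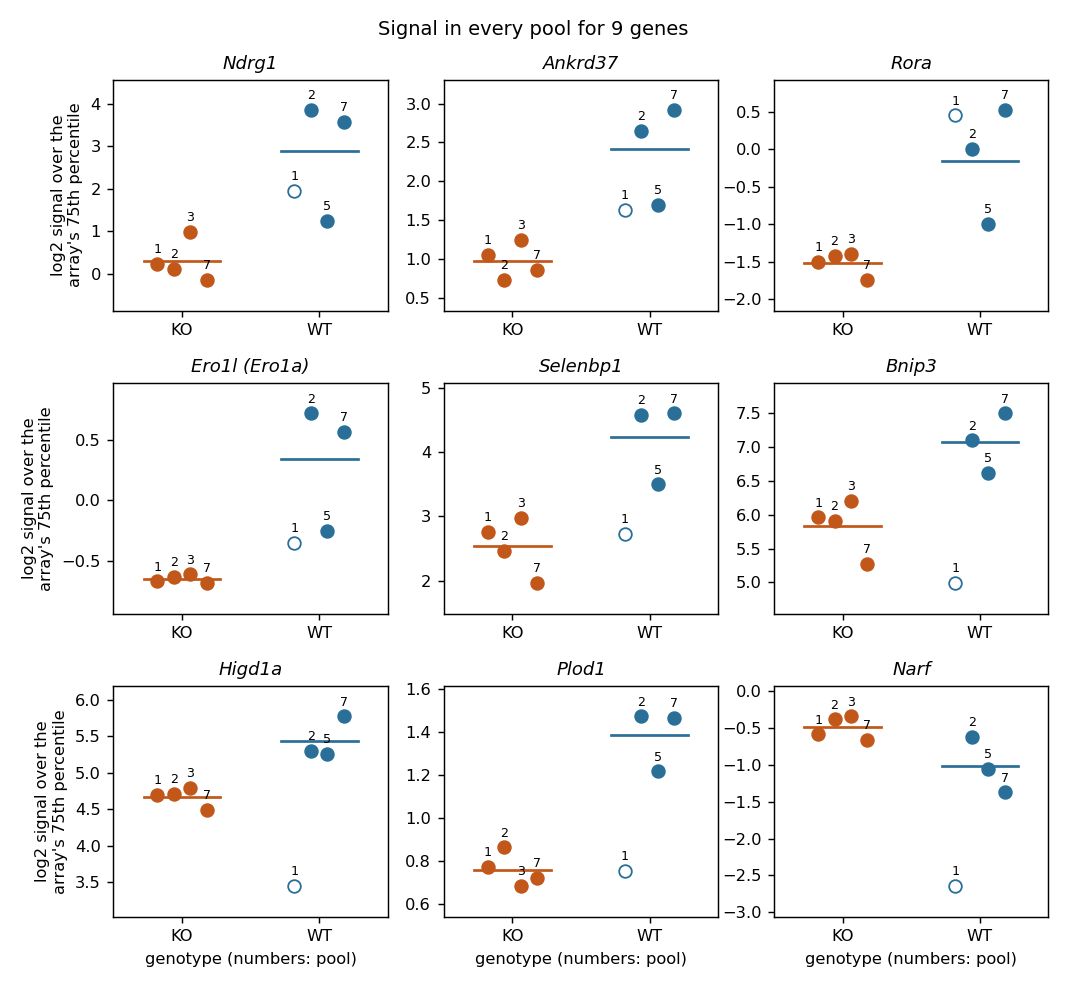
Log2 signal over the array's 75th percentile in each knockout pool (orange) and wild type pool (blue, pool 1 open) for 9 genes, with pool numbers, and lines for the mean of the 4 knockout pools and of wild type pools 2, 5 and 7. In the panels of Ndrg1, Ankrd37, Rora and Ero1a all knockout pools sit under all wild type pools, and in the panel of Narf the knockout pools are above all wild type pools except pool 2.

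The size of the difference was not even across pools. Wild type pool 5 was the lowest of wild type pools 2, 5 and 7 for 26 of 32 members, against 28.2% of all genes, and its value lay a median of -0.62 from the mean of the other pair. Wild type pool 2 lay above all 4 knockout pools for 30 members and wild type pool 7 for 29, whereas wild type pool 5 did so for 19. The shares over all genes were not counted for these. Among the knockout pools, pool 7 was the lowest for 20 members (27.8% of all genes) and pool 3 the highest for 23 (27.1% of all genes). Aldh1a2 was also lowest in knockout pool 7. The median SD of the members was 0.228 over the knockout pools and 0.415 over wild type pools 2, 5 and 7, and it was the larger in wild type for 28 of 32. Over all genes these medians were 0.183 and 0.199, with the larger SD in wild type for 54.6%.

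Of the 48 member probes that at least 3 knockout arrays and 3 wild type arrays showed above background, 47 were negative with 7 arrays and 35 with 8. Of all genes, with 1 probe each, 41.4% were negative with 7 arrays and 40.5% with 8. The share over all probes was not counted. None of the 11 genes with more than 1 such probe had probes of opposite sign in either set of arrays.

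Wild type pool 1 was not uniformly low for these genes. It was the lowest of the 8 pools for 21 of 32 members, against 53.7% of all genes. It lay above all 4 knockout pools for 7 members, and this share over all genes was not counted. Mean levels of those 7, with 7 arrays, lay above those of 22% (Bhlhe41) to 67.2% (Ankrd37) of all genes. For the 21 members lowest there, the range was 44.9% (Narf) to 99.6% (Mif). The deposited Bhlhe41 signal was 5517.99 in wild type pool 1, against 59.7 to 141.2 in the other pools. The part of that array's higher signals in these values was not tested. The mean of the members, each centred on the 7 other arrays, was -0.32, -0.44, -0.12 and -0.58 in knockout pools 1, 2, 3 and 7, against -0.76, 0.66, 0.04 and 0.76 in wild type pools 1, 2, 5 and 7. Wild type pool 5 thus stood between the knockout pools and wild type pools 2 and 7, and wild type pool 1 lay below them all.

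Other genes of the pathway were read from lists of 20 glycolytic targets and 10 HIF factors and oxygen sensors. With 7 arrays, 19 of the 20 glycolytic genes were negative with a median of -0.50, and 15 had every knockout pool below every wild type pool (4.94% of all genes). With 8 arrays, 9 of 20 were negative with a median of 0.03, and the groups were separated in this way in 0 of 20 (1.4% of all genes). Of the HIF factors and oxygen sensors, 5 of 10 were negative with 7 arrays, the median was 0.01, and the values ranged between -2.17 and 0.35. With 8 arrays 3 of 10 were negative and the median was 0.51. None passed the threshold in either list. An unadjusted limma p under 0.05 with 7 arrays and a lower knockout level was found for 13 glycolytic genes and for 2 of the other 10 (4.42% of all genes). With 8 arrays it was found for 1 glycolytic gene and for 2 of the other 10 (1.03% of all genes).

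Marker lists of the cell types that an outflow tract could hold were set beside the members. With 7 arrays all 10 erythroid markers were higher in the knockout pools with a median of 0.74, and with 8 arrays all 10 were higher with a median of 1.21. The direction of other lists turned with wild type pool 1. All 8 macrophage markers were higher with 7 arrays (median 0.26), whereas 5 of 8 were lower with 8 arrays (median -0.14). All 10 cardiomyocyte markers were lower with 7 arrays (median -0.20), whereas 9 of 10 were higher with 8 arrays (median 0.38). With 7 arrays, negative values were found for 4 of 8 endothelial markers (median 0.05), 3 of 8 outflow tract progenitor markers (0.26), 3 of 7 neural crest markers (0.32) and 3 of 8 pharyngeal epithelium markers (0.80). With 8 arrays negative values were found for 1 of 8 endothelial markers (median 0.40), 2 of 8 progenitor markers (0.77), 1 of 7 neural crest markers (0.40) and 4 of 8 pharyngeal epithelium markers (0.01). No marker passed the threshold (limma).

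As means over each list in a pool, centred in the same way as those of the members, erythroid markers ran between -0.55 and 0.83 in the knockout pools, against -1.22 to 0.78 in wild type pools 2, 5 and 7. Cardiomyocyte markers ran between -0.27 and 0.05 in the knockout pools, against -0.16 to 0.45 in those wild type pools. For macrophage markers the range was -0.49 to 0.88 in the knockout pools, against -0.74 to 0.79. The glycolytic genes ran between -0.43 and -0.11 in the knockout pools, against 0.07 to 0.53, and the HIF factors and oxygen sensors between -0.21 and -0.06, against -0.04 to 0.27. The means of the glycolytic genes were thus separated between the groups without wild type pool 1, as were those of the members. Those of the HIF factors and oxygen sensors were barely apart, with -0.06 in knockout pool 3 and -0.04 in wild type pool 5. In that list 5 of 10 genes were negative with 7 arrays, and the median was 0.01. The part of cell makeup in the members' values was not tested.

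**Figure D5:**
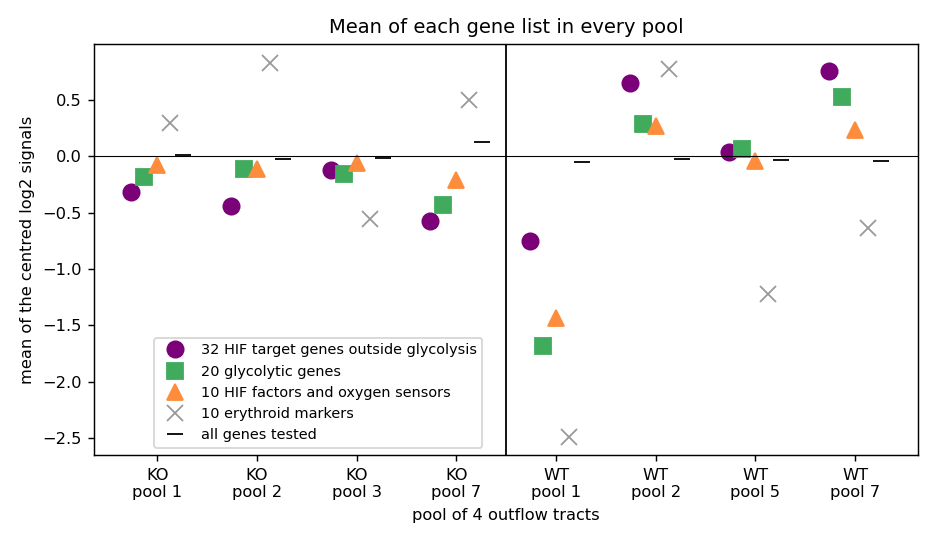
Mean of the log2 signals, centred on the 7 arrays that leave out wild type pool 1, of the HIF target genes outside glycolysis and of 3 other lists and all genes, in 4 knockout and 4 wild type pools. The means of the HIF target genes lie at -0.12 or below in the knockout pools and at 0.04 or above in wild type pools 2, 5 and 7. The glycolytic genes are separated between these pools as well. The HIF factors are barely apart (-0.06 in knockout pool 3, -0.04 in wild type pool 5), and the erythroid markers overlap.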

How the data were processed

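The authors deposited 1 scanner file per array and a matrix over all arrays, made with Agilent Feature Extraction 10.7.3.1 (protocol GE1_107_Sep09, design 028005), per the file headers. The deposited values are of the unit intensity, on a linear scale, background-subtracted within each array per the file headers and not scaled between arrays. The matrix differed from the processed signals by at most 0.497%. Per the labels' protocols, RNA was extracted without DNase and 50 ng was labelled with Cy3. Of 59305 spots that are not controls, outlier spots were left out and spots of 1 probe were averaged, giving 55681 probes, of which 66 were lost. Deposited signals were divided by the 75th percentile of their array and taken to log2. Names came from RefSeq (GRCm38.p6): 26026 probes by accession, 3197 by symbol and 928 by synonym, with 25464 keeping the file's name. Names in the file of knockout pool 1 differed from the other arrays in 56 spots, so those of another array were used.

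A probe entered if a group had at least 3 arrays on which it was well above background, and the brightest such probe stood for its gene. limma 3.58.1 (R 4.3.3; lmFit and eBayes, two-sided) compared 4 knockout with 4 wild type pools, with Benjamini-Hochberg adjustment over all genes and a threshold of 0.05. The fit was run on simulated arrays with independent noise at the residual SDs of the 7-array fit. Their median over all genes was 0.207, against 0.714 with 8 arrays. An array like wild type pool 1 was therefore not covered. Values in every pool are given for members with the 10 smallest unadjusted p-values in the fit of 8 or of 7 arrays, for any member past the threshold in any fit, and for members whose probes disagree. The members and all lists were chosen with earlier results of these data known. Deviations of same-numbered pools had correlations of -0.151, 0.324 and -0.406 for numbers 1, 2 and 7 with 8 arrays. With 7 arrays they were 0.046 and -0.038 for numbers 2 and 7. These values do not settle whether such pools are related, and no pairing was used. Probe positions are on mm9 and promoters on GRCm38.p6, and whether a probe lies in an untranslated region was not looked up. Alternatives covered scaling, background correction, the filter, probe choice, array weights, a replicate block and pools left out. The number of arrays limits the precision.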

Additional observations from a re-analysis of the deposited data

Results flagged for a closer look

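Over 64 groups of 4 pools, 2 for each of the 32 measured members, the gap between the most extreme pool and its neighbour was large for the range in 3, and chance gives about 1 in 20. All 3 were wild type pool 1. Bnip3l had a log2 signal of 2.78 there, against 4.86 to 5.13 in the other wild type pools. Kdm4b had 1.36, against 3.16 to 3.44. Mif had 5.83, against 8.22 to 8.68.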

How the results depend on the processing

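Under 19 alternatives to the fit of 8 arrays, 14 of 32 members kept their direction and 18 changed it at least once. Under 13 alternatives to the fit of 7 arrays, 0 of 32 changed direction and Ero1a alone of the members passed the threshold, in 1 of them. The median over members was -0.46 and turned to 0.046 with the array median in place of the 75th percentile, when the median of all genes stood at 0.69, 15 members were negative and 29 of 32 lay below that median. With pools left out the median lay between -0.92 and -0.28 and the number of negative members between 20 and 31. It was -0.28 with 20 negative without wild type pool 7, and -0.34 with 22 without wild type pool 2. With wild type pool 1 and a further pool left out, chosen after seeing the data, 31 were negative in each of the 7 fits, with medians between -0.87 and -0.62, and up to 7 genes, of which Ero1a was the 1 member, passed the threshold. Genes past the threshold numbered 8 with limma array weights, and between 0 and 21 with pools left out, the 21 with the array median and without wild type pool 1. Aldh1a2 lay between -2.41 and -0.92 with pools left out. Pool number as a replicate block gave a median of -0.48 with 25 negative, and -0.92 with 31 negative without wild type pool 1, and changed no call. Log2 fold changes that changed sign were, with quantile normalization, Bnip3l -0.42, Plod2 -0.16, Lox 0.0219, Kdm4b -0.40, Kdm4c 0.33, Cited2 -0.37, Insig2 -0.0422, Mif -0.24, Tmem45a 0.21. With the array median they were Fam162a 0.41, Higd1a 0.24, P4ha1 0.0495, Plod1 0.0424, Kdm3a 0.43, Kdm4c 0.48, Jmjd6 0.0806, Rcor2 0.28, Hmox1 0.18, Wsb1 0.24. With normexp and quantile they were Bnip3l -0.41, Plod2 -0.15, Kdm4b -0.39, Kdm4c 0.21, Cited2 -0.32, Insig2 -0.0106, Mif -0.30. With array weights they were Bnip3l -0.36, Plod2 -0.39, Kdm4b -0.39, Cited2 -0.40, Insig2 -0.25, Mif -0.33. With 1 pool left out the ranges were Bnip3l -0.41 to 0.37, Fam162a -0.64 to 0.20, Higd1a -0.77 to 0.00923, Plod2 -0.47 to 0.40, Kdm3a -0.41 to 0.16, Kdm4b -0.45 to 0.25, Kdm4c -0.37 to 0.12, Rcor2 -0.66 to 0.0211, Cited2 -0.38 to 0.33, Insig2 -0.29 to 0.44, Mif -0.38 to 0.57. The causes were not tested. Limits are the 4 pools a group on 1 slide, an array that stands apart, and probes near background such as those of Mxi1 and Bhlhe41.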
